A study of Mus musculus with 4 samples.

Results

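Chromatin accessibility at 6 genes of the T cell lineage was examined in monocytes from the bone marrow of mouse femur and mandible. The loci serve here to look for traces of lymphocytes in the isolates. The members were the peaks that overlap 1 of 4 windows of GRCm39: chromosome 9 from 44870000 to 44940000 (Cd3g, Cd3d and Cd3e), chromosome 2 from 9840000 to 9910000 (Gata3), chromosome 11 from 52120000 to 52200000 (Tcf7) and chromosome 12 from 107860000 to 107990000 (Bcl11b). Of the 57090 peaks in the merged set, 11 were members, which is 0.0193%. There were 4 in the Cd3g-Cd3d-Cd3e window, 3 in the Gata3 window, 4 in the Tcf7 window and 0 in the Bcl11b window. A window's name gives the position of its peaks only, and which gene a peak belongs to was not tested.

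The assay was ATAC-seq, in which a transposase inserts sequencing adapters into open chromatin. The 4 libraries, 2 of femur and 2 of mandible, were each made from 20000 untreated cells pooled from 4 C57BL/6J mice aged 2 months. The mice of batch A gave femur replicate 1 and mandible replicate 1, and those of batch B gave femur replicate 2 and mandible replicate 2. The mice were male by the labels but of both sexes in the published methods. The labels also call the cells CD11b+, whereas the protocol in them is a negative selection, in which other cells were bound to the column by antibodies and the flow-through was kept as monocytes. This label could not be checked against monocyte marker genes, because the peaks carry no gene names and the annotation at hand is of another build.

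T cells recognize antigen through a receptor that signals through the CD3 chains, and the genes of 3 of these chains, Cd3g, Cd3d and Cd3e, lie side by side. Of the transcription factors, TCF7 and GATA3 act early in the thymus to start the T cell program, and BCL11B acts later, when the precursor becomes committed and loses other fates. Innate lymphoid cells also use TCF7 and GATA3, so these loci mark more than T cells.

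The start regions of these genes differ in sequence, and 3 of them are shown to make this visible. They are the 250 bases before the transcription start in the RefSeq annotation of GRCm38.p6, an older build than that of the peaks. Whether a peak covers them was therefore not examined. The Bcl11b window holds no peak, but the position of the Bcl11b start in GRCm39 was not determined. Capitals mark CG dinucleotides.
Bcl11b, GRCm38.p6 chr12:108003415-108003664, minus strand: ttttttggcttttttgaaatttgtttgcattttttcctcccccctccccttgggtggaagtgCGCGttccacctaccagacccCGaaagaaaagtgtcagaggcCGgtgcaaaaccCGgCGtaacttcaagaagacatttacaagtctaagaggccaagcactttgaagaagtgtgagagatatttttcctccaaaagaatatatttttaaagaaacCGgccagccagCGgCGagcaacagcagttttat
Cd3d, GRCm38.p6 chr9:44981536-44981785, plus strand: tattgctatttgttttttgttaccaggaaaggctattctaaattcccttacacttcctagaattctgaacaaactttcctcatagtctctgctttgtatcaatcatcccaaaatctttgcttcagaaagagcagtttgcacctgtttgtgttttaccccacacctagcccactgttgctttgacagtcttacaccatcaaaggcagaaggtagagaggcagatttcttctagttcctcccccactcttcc
Gata3, GRCm38.p6 chr2:9878601-9878850, minus strand: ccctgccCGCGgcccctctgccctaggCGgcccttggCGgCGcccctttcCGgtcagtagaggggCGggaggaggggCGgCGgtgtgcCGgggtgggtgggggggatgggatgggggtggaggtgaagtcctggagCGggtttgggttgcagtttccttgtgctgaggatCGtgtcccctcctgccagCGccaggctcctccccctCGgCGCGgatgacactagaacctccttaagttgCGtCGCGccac

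The Bcl11b stretch holds 9 CG dinucleotides, that of Cd3d holds 0 and that of Gata3 holds 19, against a median of 6 over 32851 mouse promoters of the same length. The other stretches hold 4 in Cd3g, 7 in Cd3e, and 15 and 37 at the 2 starts listed for Tcf7. The letters CTTTGA, the core that TCF7 recognizes, occur on either strand in the stretches of Bcl11b and Cd3d and in 13.8% of all promoters. AGATAA, which GATA factors recognize, occurs on either strand in the stretch of Cd3g and in 9.99% of all promoters.

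No peak was called in the Bcl11b window in either skeletal site. The 130 kb window lay inside a gap of 1430 kb between Peak_13097, 1235 kb below it, and Peak_13098, 64.6 kb above it. This gap was longer than 99.5% of the 57069 gaps between neighboring peaks, whose median was 7.94 kb, and 265 gaps were at least as long. An empty stretch of this window's length is common in itself: of 20333 stretches of the same length laid end to end over the chromosomes, 52.0% held no peak. These stretches were laid without regard to genes, whereas the window was placed at a gene, so the share among windows at genes is not known. The peaks are numbered without a break, so no numbered peak is left out between Peak_13097 and Peak_13098. A peak removed before the numbering would not be seen. Both bordering peaks were low. Peak_13098 had 3.02 and 2.66 CPM (counts scaled to 1000000 per library, after loess normalization) in femur replicates 1 and 2 and 3.25 and 2.57 in mandible replicates 1 and 2. Peak_13097 had 5.39 and 1.14 CPM in femur and 6.45 and 2.86 CPM in mandible, so both libraries of batch A were above both of batch B. Counts are given for called peaks only, so no upper limit on accessibility at Bcl11b can be given.

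**Figure D1:**
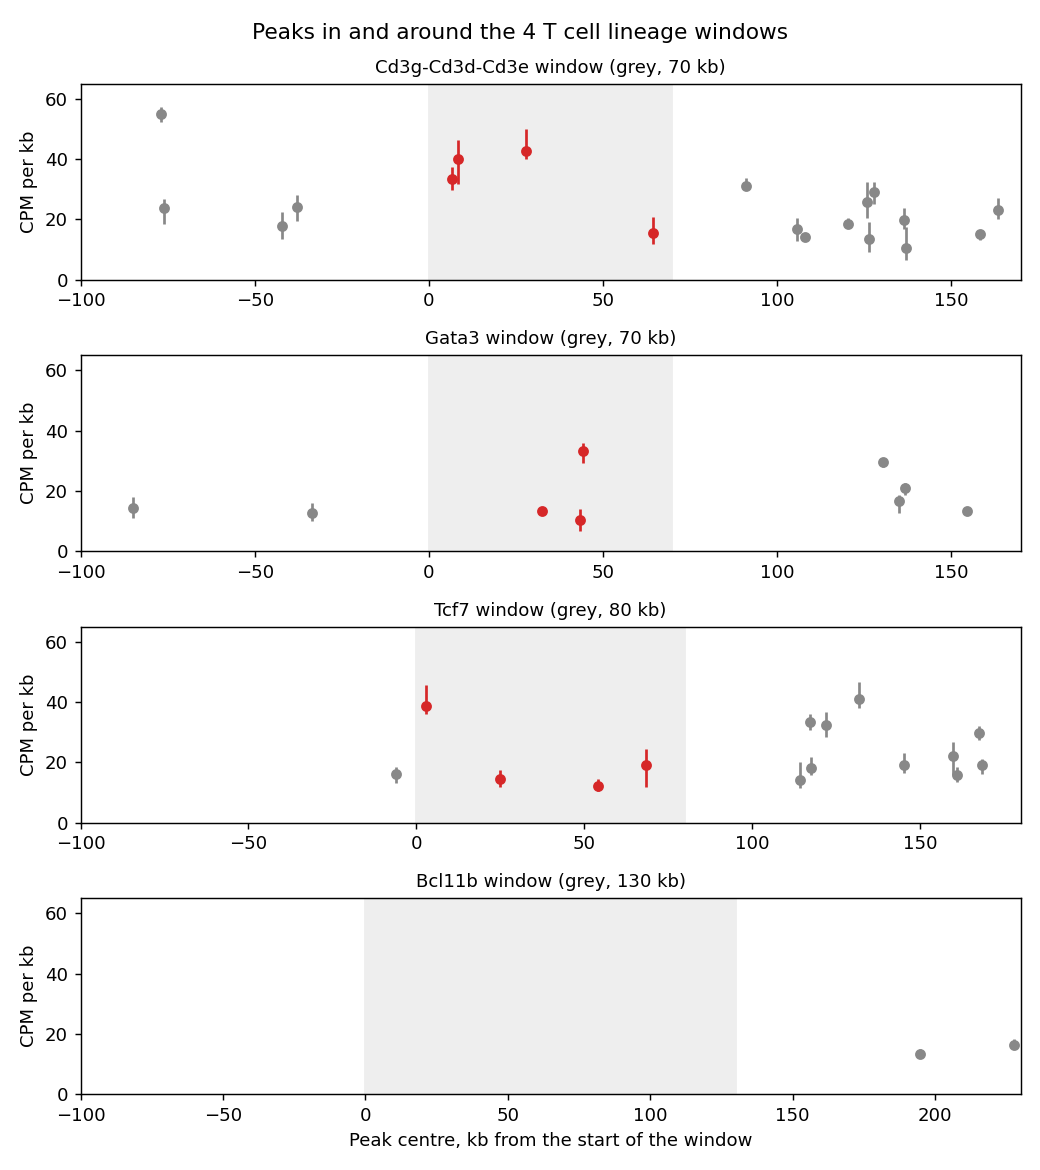
Peaks in the 4 windows (grey) and up to 100 kb to each side. The x axis gives the peak centre in kb from the start of the window and the y axis the loess-normalized CPM per kb of peak, with the mean of the 4 libraries as a point and their range as a line, in red inside the window. The Bcl11b panel is empty inside the window, whereas the highest peak of the other windows reaches 42.6 CPM per kb.

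There were peaks in each of the 3 other windows. There were 5.71 peaks per 100 kb in the Cd3g-Cd3d-Cd3e window, 4.29 in the Gata3 window and 5 in the Tcf7 window, against 2.16 over the chromosomes between their first and last peaks. Such counts are not rare: of stretches of the same length, 87.7% held as many peaks as the Cd3g-Cd3d-Cd3e window or fewer, 83.3% as many as the Gata3 window or fewer, and 85.5% as many as the Tcf7 window or fewer. These stretches, too, were laid without regard to genes. These 11 peaks received from 0.0178% to 0.0201% of the counts in peaks of a library. Single counts ranged from 48 to 4274, so counting error was small for the high peaks and not for the low ones. The lowest count, 48 at Peak_53649 in mandible replicate 2, has an exact Poisson 95% interval from 35.4 to 63.6, which covers counting error only. Both reads of a pair add to the count, so true intervals are wider.

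The 11 peaks fell on both sides of a wide gap in level. Per length, 5 of them had between 33.1 and 42.6 CPM per kb as a mean of the 4 libraries, which placed them between the 82.8th and the 90.8th percentile of all peaks. The other 6 had between 10.4 and 19.1 CPM per kb, at percentiles from 2.14 to 47.8. The high peaks were at least 290 bp long and the low ones at most 368 bp, and the part of peak length in this split was not tested. The median of the 11 peaks was 19.1 CPM per kb, close to the 19.5 of all peaks. Without Peak_53646 and Peak_8168, the first peaks of their windows and left out after seeing the data, the median was 15.4 CPM per kb. The 5 high peaks were 3 in the Cd3g-Cd3d-Cd3e window, 1 in the Gata3 window and 1 in the Tcf7 window. Among them, Peak_53646, Peak_53647 and Peak_8168 lay near the lower end of a window. Whether these belong to a gene outside the member list was not tested. A bulk library gives the mean over its cells, so a locus that is fully open in few cells cannot be told apart from one that is partly open in many.

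**Figure D2:**
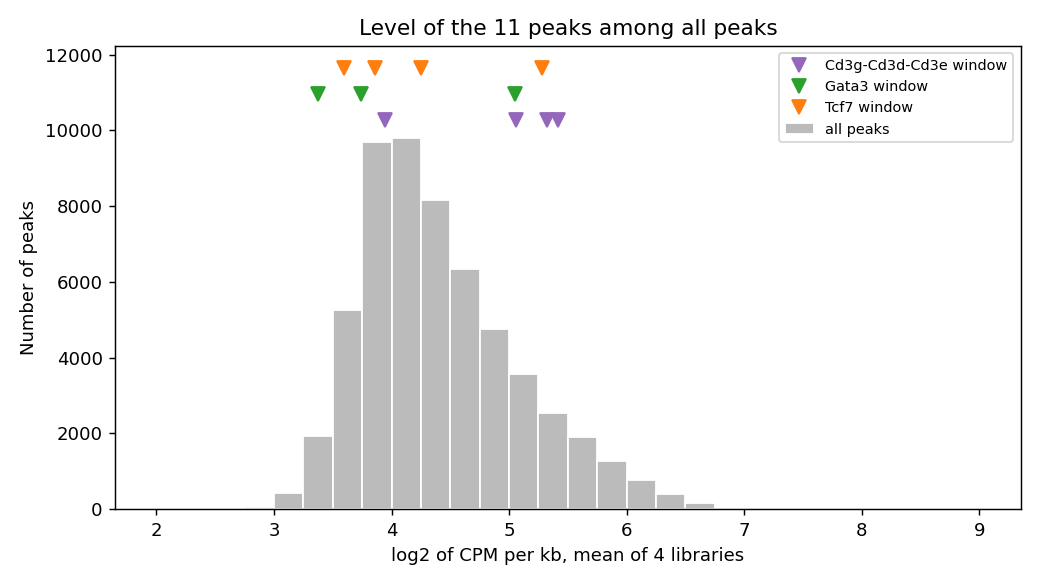
Number of peaks (y axis) by level, as log2 of the loess-normalized CPM per kb averaged over the 4 libraries (x axis), for all 57090 peaks in grey. Triangles mark the 11 peaks by window, 5 of them between 33.1 and 42.6 CPM per kb and 6 between 10.4 and 19.1 CPM per kb.

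In each occupied window a single peak held most of the summed CPM, which are not divided by length. Peak_53648 held 57.0% of the summed CPM of the Cd3g-Cd3d-Cd3e window as a mean of the libraries (range 52.6% to 58.8%). Peak_28935 held 80.3% of the Gata3 window (range 78.1% to 82.0%), and Peak_8168 held 79.1% of the Tcf7 window (range 77.6% to 81.8%). Each was also the longest peak of its window. In the order given, they made up 1432 of 2845 bp, 765 of 1309 bp and 1021 of 1746 bp in peaks. Peak_8168 lay near the lower end of its window, and whether it belongs to a gene outside the member list was not tested. In CPM, without division by length, the order of peaks within the Cd3g-Cd3d-Cd3e window was the same in every library. In CPM per kb, Peak_53647 was above Peak_53648 in femur replicate 2, at 44.7 against 40.5, and below it in the other libraries.

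The signaling chains of the receptor were examined first. Peak_53648, on chromosome 9 from 44897230 to 44898661, was the longest member at 1432 bp and the highest per length, at 42.6 CPM per kb. It had 57.1 and 58.0 CPM in femur replicates 1 and 2 and 71.4 and 57.8 CPM in mandible replicates 1 and 2. Mandible replicate 1 stood above the other libraries, which lay within 1 CPM of each other. The mean was 57.6 ± 0.613 CPM in femur and 64.6 ± 9.60 CPM in mandible (SD, n = 2). The log2 fold change of mandible against femur was 0.17 (standard error 0.13, 95% interval from -0.11 to 0.44), with an adjusted p of 1 by edgeR's quasi-likelihood test over all 57090 peaks.

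Peak_53646, from 44876344 to 44877305, and Peak_53647, from 44878126 to 44878415, lay 820 bp apart near the lower end of the window. Peak_53646 had 28.5 and 36.0 CPM in femur and 34.7 and 29.3 CPM in mandible, in the order of replicates. Peak_53647 had 10.7 and 13.0 CPM in femur and 13.5 and 9.23 CPM in mandible. In both peaks femur replicate 2 and mandible replicate 1 were the high libraries, and the sites overlapped. The log2 fold changes were -0.01 (standard error 0.17) and -0.06 (standard error 0.24). Ube4a, which encodes a ubiquitin chain assembly factor used by many cell types, is the gene next to Cd3g on this side in GRCm38.p6. Whether these peaks belong to Ube4a or to Cd3g was not tested.

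Peak_53649, 161 bp long at 44934206 to 44934366, was the shortest member. Its counts were 99 and 283 in femur and 75 and 48 in mandible. After normalization these were 2.18 and 3.33 CPM in femur and 2.51 and 1.90 CPM in mandible, with the lowest value in mandible replicate 2. The log2 fold change was -0.33 (standard error 0.34), and its 95% interval, from -1.05 to 0.40, holds a change of 2-fold.

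Among the transcription factors, Gata3 had the lowest summed signal of the occupied windows. Peak_28935, on chromosome 2 from 9883960 to 9884724, had 26.7 and 22.3 CPM in femur and 25.1 and 27.4 CPM in mandible, with femur replicate 2 lowest. Its log2 fold change was 0.10 (standard error 0.18). Peak_28934, only 419 bp below it, was the lowest member per length at 10.4 CPM per kb, against 33.1 for its neighbor. It had 3.90 and 2.26 CPM in femur and 3.09 and 4.75 CPM in mandible, again with femur replicate 2 lowest. Its log2 fold change was the largest of the members, at 0.36 (standard error 0.33, 95% interval from -0.34 to 1.06). Peak_28933, 10591 bp further down, was the member that varied least among libraries, with 2.89 and 2.65 CPM in femur and 2.61 and 2.92 CPM in mandible.

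Tcf7 encodes TCF7, which Notch signaling induces early in the thymus. The highest peak of its window was Peak_8168, on chromosome 11 from 52122312 to 52123332, near the lower end of the window. It had 36.7 and 46.6 CPM in femur and 37.0 and 38.05 CPM in mandible, so that femur replicate 2 stood above the other libraries. Its log2 fold change was -0.15 (standard error 0.15). Skp1, which encodes a subunit of SCF ubiquitin ligases used by all cell types, is the gene next to Tcf7 on this side in GRCm38.p6, and whether the peak belongs to it was not tested.

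The 3 remaining peaks of the Tcf7 window were low, between 12.1 and 19.1 CPM per kb. Peak_8169, from 52144897 to 52145064, had 2.53 and 2.91 CPM in femur and 2.00 and 2.33 CPM in mandible. Peak_8170, from 52173976 to 52174343, had 4.44 and 5.38 CPM in femur and 4.07 and 3.86 CPM in mandible. In these peaks both mandible libraries were below both femur libraries. The log2 fold changes were -0.33 (standard error 0.33) and -0.31 (standard error 0.27). Peak_8171, from 52188281 to 52188469, had 3.13 and 4.39 CPM in femur and 4.63 and 2.27 CPM in mandible, and the mandible libraries enclosed the femur libraries.

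**Figure D3:**
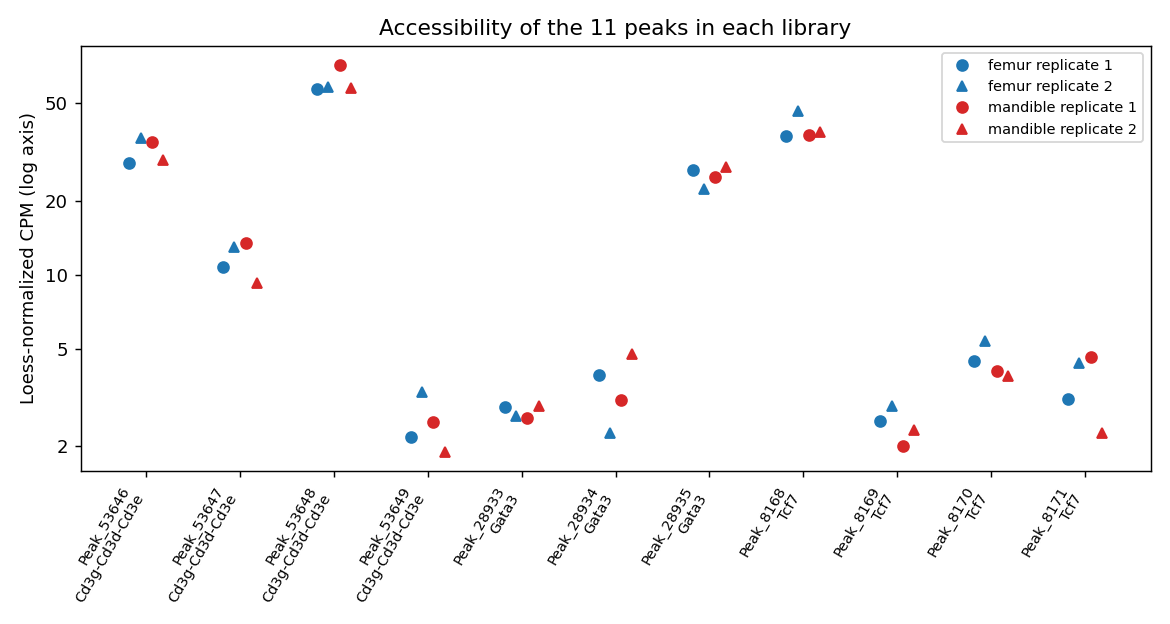
Loess-normalized CPM (y axis, log scale) of each of the 11 peaks (x axis, by window) in the 4 libraries, with 1 symbol per library. The peaks of femur (blue) and mandible (red) overlap except at Peak_8169 and Peak_8170, where both mandible libraries are lower.

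No peak at the T cell lineage loci passed the test for a difference of mandible against femur. By edgeR with an adjusted p under 0.05, 0 of the 11 peaks were called, where 0.00701% of all peaks were. Split by direction, 0 of 11 were higher in mandible, against 0.00525% of all peaks, and 0 of 11 lower, against 0.00175%. With libraries left out in turn, the share over all peaks changed most without femur replicate 1, a fit in which replicate 2 alone stands for femur. At an unadjusted p under 0.05, 0 of 11 were called as well, where 2.72% of all peaks were. DESeq2 called 0 of 11 at that unadjusted threshold, against 2.81% of all peaks. DESeq2 gave no adjusted p for 6 of the 11. It called 0 of the remaining members, against 0.0379% of the peaks with an adjusted p. Log2 fold changes ranged from -0.33 to 0.36, and their median of -0.06 lay beside a median of -0.0045 over all peaks. The fold change was above 0 in 3 of 11 peaks, where it was in 49.1% of all peaks. The libraries of both sites did not overlap in 2 of 11 peaks, against 27.1% of all peaks. Both mandible libraries were the lower ones in these 2, against 13.8% of all peaks, and the higher ones in 0 of 11, against 13.3%. The 95% interval held 0 in all 11 peaks, and in 3 of them it also reached a change of 2-fold or more, so a change of that size is not excluded there.

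Summed over each window, the libraries of both sites overlapped in all 3 occupied windows. The Cd3g-Cd3d-Cd3e window had 98.5 and 110.3 CPM in femur and 122 and 98.3 CPM in mandible, a log2 difference of 0.07 (exact permutation test, two-sided p = 1). The Gata3 window had 33.4 and 27.2 CPM in femur and 30.8 and 35.0 CPM in mandible, a log2 difference of 0.12 (exact permutation test, two-sided p = 0.667). The Tcf7 window had 46.8 and 59.2 CPM in femur and 47.7 and 46.5 CPM in mandible, a log2 difference of -0.16 (exact permutation test, two-sided p = 0.667). With 2 libraries against 2 the smallest p of this test is 0.333. The test exchanged libraries freely and did not use their pairing by batch. Without femur replicate 2, the Gata3 difference was -0.03 and the Tcf7 difference 0.02, so both directions rested on that library. The Cd3g-Cd3d-Cd3e difference was -0.01 without femur replicate 1 and -0.08 without mandible replicate 1. Most of the Tcf7 window sum was Peak_8168, whose gene was not tested. Without this peak, the Tcf7 window had 10.1 and 12.7 CPM in femur and 10.7 and 8.46 CPM in mandible.

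Within batches, the windows moved in different directions. In batch A, all 4 peaks of the Cd3g-Cd3d-Cd3e window were higher in mandible, and in batch B all 4 were lower, with summed log2 differences of 0.31 and -0.17. The batch B difference of Peak_53648, the highest of these peaks, was only -0.0059. In the Gata3 window it was the other way around: all 3 peaks were lower in mandible in batch A and higher in batch B, with summed differences of -0.12 and 0.37. The Tcf7 window had summed differences of 0.03 in batch A and -0.35 in batch B, where all 4 peaks were lower in mandible. Over the members, 2 of 11 differences had the same sign in both batches, against 42.3% of all peaks, and both were Tcf7 window peaks, Peak_8169 and Peak_8170. Among the rest, Peak_53648 in batch B and Peak_8168 in batch A (0.011) took their sign from a difference near 0. Each batch holds 1 library per site, so these differences have no replicate of their own. The members of a window lie in 1 locus and share their libraries, so they are not independent of each other.

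**Figure D4:**
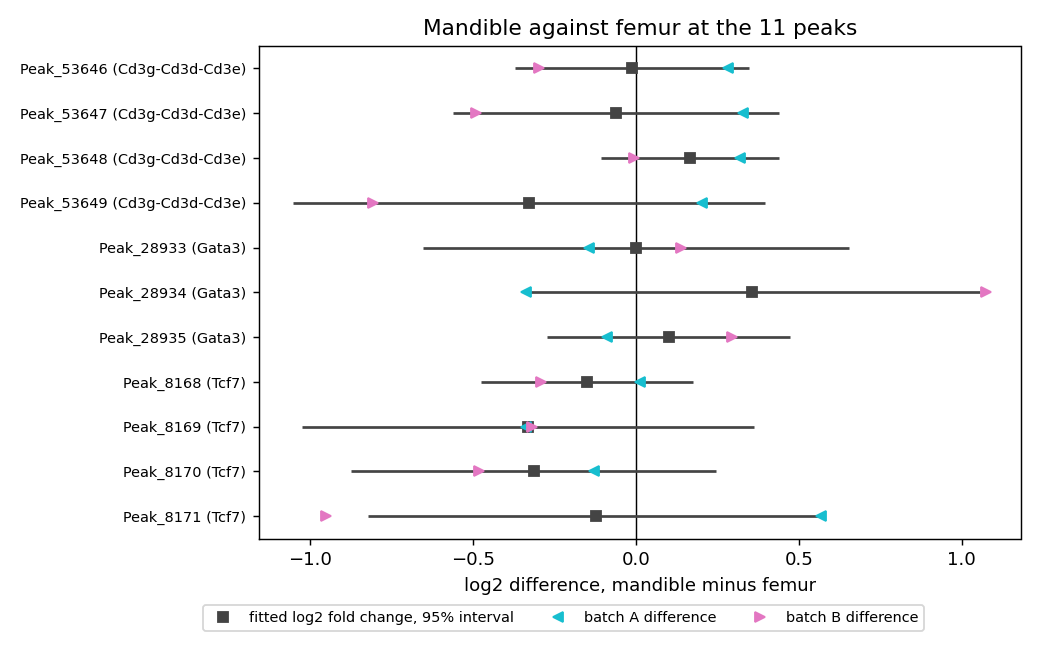
Log2 difference of mandible against femur (x axis) at the 11 peaks (y axis), with the fitted log2 fold change of all 4 libraries as a square, its 95% interval as a line, and the difference within batch A and batch B as triangles. All 11 intervals hold 0, and in 9 of 11 peaks the triangles of the batches lie on opposite sides of 0. The batch B triangle of Peak_53648 and the batch A triangle of Peak_8168 lie close to 0.

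Femur replicate 2, the deepest library, was the highest or the lowest library in 7 of the 11 peaks, which is 63.6%, and in 65.7% of all peaks. The total counts in peaks of the libraries ranged from 27464565 to 75294068. The SD of the log2 difference over all peaks was 0.432 between the femur libraries and 0.342 between the mandible libraries, and it was 0.269 between the libraries of batch A and 0.498 between those of batch B. Femur replicate 2 lay above the mean of the other libraries in all 4 Tcf7 window peaks and below it in all 3 Gata3 window peaks. In the Cd3g-Cd3d-Cd3e window it was above that mean in 3 of 4 peaks. Mandible replicate 1 was above it in all 4 peaks of that window and mandible replicate 2 below it in all 4. The part of depth and of this library in these differences was not tested.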

How the data were processed

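Reads were trimmed (Trimmomatic), aligned to GRCm39 (Bowtie2) and filtered for mapping quality and duplicates by the authors. Genrich then called peaks per pair of duplicates, and bedtools merged the peaks of both sites. The deposited values are raw counts per merged peak, made with featureCounts 2.0.6 (maximum fragment length 1000 bp), and both reads of a pair add to a count. A transposase shift is not given in the sources used here. Since peaks were called per site, only their counts were compared between libraries.

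The members and lists were chosen with earlier results of these data known. Peaks were taken by overlap with the windows. Counts were analyzed with edgeR 4.0.16 and limma 3.58.1 (R 4.3.3): per library, a loess curve of log count (pseudocount 0.5) on mean log CPM, centered across libraries, was the offset, and glmQLFit and glmQLFTest were fitted on all 57090 peaks with site as sole factor (common dispersion 0.0291), after a check on simulated counts. The default filter removed 0 peaks. P-values were adjusted by Benjamini-Hochberg, with a threshold of 0.05. A standard error is the log2 fold change over the root of its F statistic. Normalized CPM are counts divided by the exponentiated offset, scaled to 1000000, and CPM per kb divide these by peak length. Window sums were compared by an exact permutation test over libraries, without regard to batch. The naming rule took the start peak of each member, the highest peak per window and up to 5 peaks per direction. Start peaks could not be named, since the annotation at hand is GRCm38.p6. For the same reason the marker lists of other cell types were not analyzed. That annotation gave neighboring gene names and promoter sequences (RefSeq, 6 of 6 genes matched).

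Same-numbered libraries come from the same pooled mice per the labels, so the numbers pair them. Their deviations from the site means had a correlation of -0.167 across peaks. Alternatives were TMM, library size alone, DESeq2 1.42.0, 2 count filters, a replicate block and each library left out.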

Additional observations from a re-analysis of the deposited data

How the results depend on the processing

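No member passed an adjusted p under 0.05 in either direction in the fit or in any alternative, where the adjusted p-values ranged from 0.227 to 1 over 104 combinations of peak and setting; DESeq2 gave none for 6 of the peaks. The replicate block also called 0 of the 11 peaks, against 0.105% of all peaks. In this balanced design the window differences are the same with and without the block, at 0.07, 0.12 and -0.16, so the block is no check on them. At an unadjusted p under 0.05, 0 peaks were called in the fit, 1 with TMM (Peak_53648) and from 0 to 2 with a library left out, the 2 being Peak_8168 and Peak_28934 without femur replicate 1. In that fit 16.4% of all peaks had such a p, against 2.72% with all libraries, and 2690 of all peaks passed the adjusted threshold, against 4. A site left with 1 library is assumed to vary like the other. With TMM, 4.54% of all peaks had an unadjusted p under 0.05, beside the 1 of 11 members. Of 110 combinations of peak and setting, 95 kept the direction of the log2 fold change and 15 turned it, 12 of these with a library left out and 7 without femur replicate 2. With libraries left out in turn, the window difference ranged from -0.083 to 0.22 for Cd3g-Cd3d-Cd3e, from -0.029 to 0.27 for Gata3 and from -0.33 to 0.018 for Tcf7. Peak_53646 turned to 0.075 with TMM and to 0.084 with DESeq2, and Peak_28933 to 7.9e-05 with at least 10 counts in every library. With libraries left out, the ranges of the log2 fold changes that turned were -0.31 to 0.038 for Peak_8168, -0.72 to 0.29 for Peak_8171, -0.11 to 0.086 for Peak_28933, -0.0090 to 0.78 for Peak_28934, -0.026 to 0.24 for Peak_28935, -0.17 to 0.18 for Peak_53646, -0.35 to 0.18 for Peak_53647 and -0.61 to 0.087 for Peak_53649. The cause was not tested. With library size alone the median over all peaks moved from -0.0045 to -0.116. Without the first peak of the Cd3g-Cd3d-Cd3e and Tcf7 windows, chosen after seeing the data, the difference was 0.10 for Cd3g-Cd3d-Cd3e and -0.25 for Tcf7, and the median level of the members was 15.4 in place of 19.1 CPM per kb. Keeping all peaks of at least 1 count repeats the same fit. The Bcl11b window gave no value, and alternatives by gene annotation were not run. The spread between libraries and low counts, such as the 48 to 283 of Peak_53649, the shortest member, limit the detection of small changes.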
